A study of Mus musculus with 6 samples.

Results

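Forebrain of mouse embryos that lack both Fezf1 and Fezf2 (genotype Fezf1-/- Fezf2-/-) was followed over the interval from embryonic day 10.5 (E10.5) to embryonic day 12.5 (E12.5). These are 2 of the 6 arrays of the series, chosen by their labelled genotype and age, and they stand for 1 array at each age. The tissue was the forebrain in front of the caudal limit of the lateral ventricles, dissected by hand, and the labels record neither the number of embryos pooled for each array nor the make of the 2 alleles. The other arrays, also 1 each, are the knockout at E9.5 and wild type at that age and at both later ages. With 1 array per genotype and age no difference has a replicate check, so all values below are descriptions of these arrays and none has a test. Exactly 1 gene symbol was named by 34958 probe sets, which stand for 18194 genes, and 7889 of these had a signal over 100 in at least one of the 2 knockout arrays.

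Fezf1 and Fezf2 are related zinc-finger transcriptional repressors of the early forebrain. In this tissue, dividing neuroepithelial cells are held as progenitors by Notch signalling and its target repressors of the Hes family. Proneural factors such as Neurog2 release cells from that state, and a relay of transcription factors (Eomes, the Neurod family, Tbr1) then accompanies the birth of glutamatergic cortical neurons, while Dlx genes accompany the birth of GABAergic neurons in the ventral telencephalon. The interval from E10.5 to E12.5 covers the onset of neurogenesis.

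Signals are array units after quantile normalization of the 6 arrays. A change is the difference of log2(signal + 6.50) between E12.5 and E10.5, where 1 is 2-fold and where the added constant, the lower quartile of all deposited values, understates the fold of dim genes. A gene is said to have risen or fallen when it changed at least 2-fold and had a signal over 100 in either knockout array. Of the 7889 genes over that limit, 731 rose (9.27%) and 653 fell (8.28%), 17.5% in either direction, and the median change of all of them was -0.07. The shares of 9.27% risen and 8.28% fallen are the background for every list count of risen or fallen genes below. The values as deposited were brighter at E12.5, which moved the median change to 0.82 and the split to 3416 risen and 138 fallen genes, so directions below are those relative to the bulk of genes. Over the same interval in wild type, 605 of 7839 genes rose (7.72%) and 556 fell (7.09%).

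The targeted genes come first. Fezf2 signal was 0.904 in the knockout at E10.5 and 1.66 at E12.5, against 146 and 249.3 in wild type. Fezf1 signal was 78.4 and 49.5 in the knockout, against 143 and 174. Fezf2 is thus near the floor of the array at both ages and Fezf1 is lowered but measurable, and the position of the Fezf1 probe set relative to the deleted part is not given in the labels. Forebrain identity was read from Lhx2 (364 and 1074 in the knockout), Emx2 (183 and 451), Six3 (181 and 133) and Otx2 (649 and 468), which were over 100 in both arrays. The 2% trimmed mean of the deposited values was 91.2 for the younger knockout array, against 162 for the older. The ratio of 3' to 5' actin signal was 1.59 and 1.45. The spiked-in bacterial Dap RNA was brighter at E10.5 (2791 against 807), and its part in the results was not tested.

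**Figure D1:**
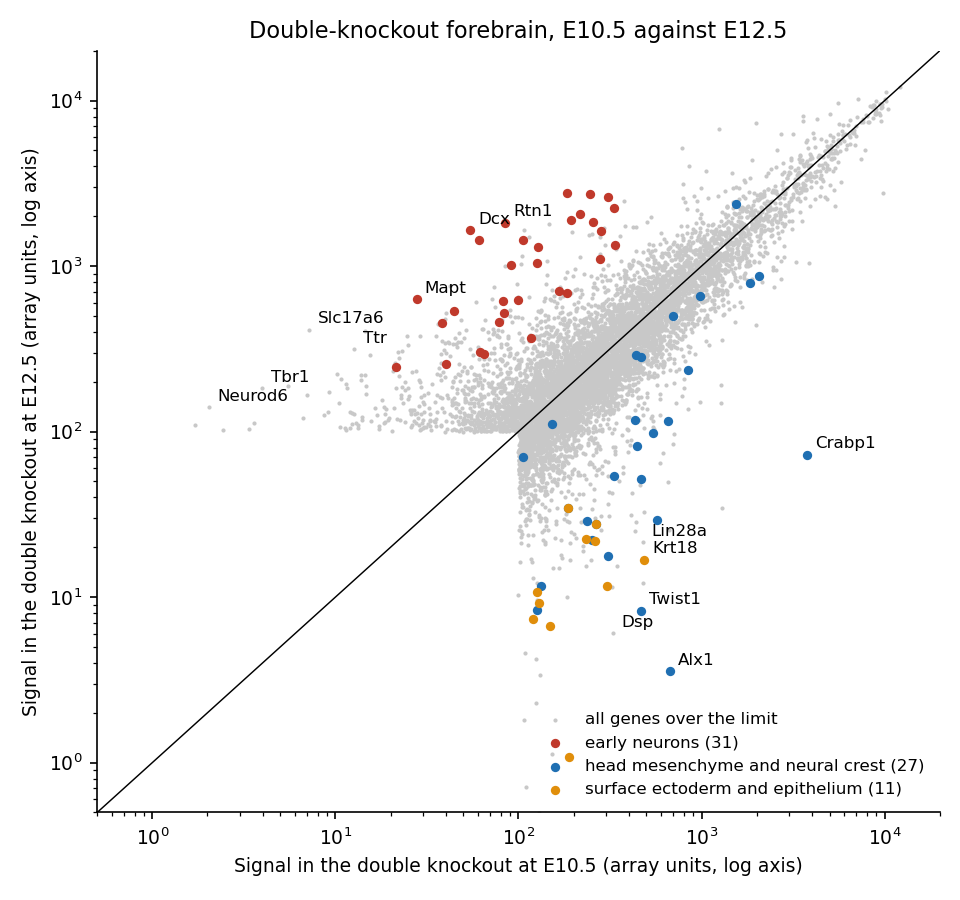
Signal of 7889 genes in the knockout at E10.5 (horizontal, array units, log axis) and E12.5 (vertical, array units, log axis), each point 1 gene, with the diagonal marking no change. The 31 early neuron genes lie above the diagonal, and the 11 surface ectoderm genes and 26 of the 27 head mesenchyme genes lie below it.

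Genes of newborn neurons rose in the knockout between these ages. Of 36 listed genes of early neurons (cytoskeleton, vesicle and adhesion genes switched on as a neuron is born), all 36 were measured, 31 were over the signal limit, and all 31 of these rose, where 9.27% of all genes did. Their median change was 2.99, against -0.07 over all genes, and it was 2.77 over all 36 measured genes, where the signal limit plays no part; 35 of those 36 went up at least 2-fold, against 7.87% of all 18194 genes. The 5 members under the limit were Lhx1, Onecut1, Onecut2, Pou4f1 and Lhx5, and of all 36 only Lhx5, a LIM-homeobox factor, did not change at least 2-fold upward (-0.46).

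Slc17a6, the vesicular transporter that loads glutamate into synaptic vesicles, had the largest increase of any gene over the limit. Its signal was 7.20 at E10.5 and 412.5 at E12.5, a change of 4.93, and its second probe set changed by 3.80. Dcx, which binds microtubules in migrating neurons, went from 54.3 to 1651 (4.77). Both genes were thus dim at E10.5 and among the bright genes at E12.5. Nsg2, a protein of neuronal endosomes, went from 60.7 to 1438 (4.43), and Rtn1, a reticulon of the endoplasmic reticulum, from 84.6 to 1829 (4.33). Mapt, which encodes the microtubule protein tau, went from 27.7 to 632.5 (4.22). Map2, its dendritic counterpart, went from 184.6 to 2775 (3.86), and the neurofilament gene Ina from 105.6 to 1445 (3.69). Ina aside, these are among the 15 largest increases, with clone-named genes (such as those ending in Rik) left out. The others were Islr2 (4.30), Tbr1 (4.17), Neurod6 (4.11), Ttr (4.06), Scn3b (4.03), Celf5 (3.97), Ncan (3.87), Kcnk10 (3.82) and Rab3c (3.78). All of these but Ttr, a thyroid hormone carrier of the choroid plexus, are genes with known neural expression.

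The upstream regions of Nsg2 and Rtn1 are shown because these are the 2 early neuron genes with the largest change whose 250 bases before the start of transcription hold the E-box CAGATG on either strand, a word that proneural factors can bind. Both are from RefSeq on GRCm38.p6, given on the gene's strand, with the word in capitals; in Rtn1 it is read on the other strand.
Nsg2, chr11:32000169-32000418, plus strand: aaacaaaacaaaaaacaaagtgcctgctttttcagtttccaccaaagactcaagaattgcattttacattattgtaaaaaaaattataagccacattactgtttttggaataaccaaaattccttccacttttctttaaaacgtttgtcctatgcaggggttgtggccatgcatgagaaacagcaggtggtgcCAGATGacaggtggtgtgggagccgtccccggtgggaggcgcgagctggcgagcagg
Rtn1, chr12:72409055-72409304, minus strand: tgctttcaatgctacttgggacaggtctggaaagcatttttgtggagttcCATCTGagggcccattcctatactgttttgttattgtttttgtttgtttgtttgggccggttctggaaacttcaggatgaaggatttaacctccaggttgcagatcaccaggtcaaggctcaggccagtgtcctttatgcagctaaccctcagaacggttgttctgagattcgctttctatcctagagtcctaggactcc
The word begins 57 bases before the start in Nsg2 and 200 bases before it in Rtn1. Of the 31 early neuron genes, 20 were matched to the promoter table and 5 held the word (25%). It was in 89 of 576 matched genes that rose (15.5%), in 61 of 512 that fell (11.9%) and in 556 of 5391 that did neither (10.3%). Among all 6479 matched genes over the limit it was in 706 (10.9%). These shares count a gene if any of its promoters holds the word. Over all 32851 promoters in the table, counted per promoter and with no signal limit, it was in 14.4%, which is not a like measure. A match is a description of the letters only, and no difference between these shares was tested.

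The proneural genes and those of basal progenitors, the dividing cells between radial glia and neurons, rose too. Of 30 listed, 29 were measured and 25 were over the limit. Of the 25, 21 rose and none fell, where 9.27% and 8.28% of all genes did. The median change was 1.77 (1.598 over all 29 measured). Neurog2, the proneural factor of the cortex, went from 84.6 to 997.7 (3.46). Eomes, the marker of cortical basal progenitors, went from 37.8 to 293.4 (2.76). Both had been below wild type at E10.5 and came closer to it: Neurog2 stood at 247 and 1191 in wild type, and Eomes at 186.4 and 417.5. Nhlh2, a helix-loop-helix factor of newborn neurons, went from 58.5 to 608.8 (3.24), Myt1, a zinc-finger factor of neuronal differentiation, from 38.5 to 353.5 (3.001) and the RNA-binding Elavl4 from 143.7 to 1076 (2.85). The members over the limit that changed less than 2-fold were Tcf4 (0.94), Ebf3 (0.93), Cbfa2t2 (0.59) and Neurog1 (0.43).

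Markers of glutamatergic and of GABAergic neurons both rose. Of the 28 listed glutamatergic and cortical genes, 26 were measured and 19 over the limit; 11 rose, Id2 fell (-1.40), and the median change was 1.53 (1.15 over all 26 measured). Tbr1, a T-box factor of early cortical neurons, went from 3.99 to 182.1 (4.17), Neurod6 from 2.04 to 140.7 (4.11), and Neurod2, another factor of the same family, from 12.6 to 128.0 (2.81). All 3 were dim at E10.5, and at E12.5 all 3 were below the wild type, where Tbr1 was 277.7, Neurod6 350.9 and Neurod2 164.1. Nr4a2, an orphan nuclear receptor, changed by 1.98. Of the 20 listed GABAergic genes, 16 were measured and 12 over the limit; 10 rose and none fell, with a median of 2.07. Gad1, which makes GABA, went from 40.2 to 522.6 (3.50), and Gad2, a second such enzyme, from 37.8 to 259.8 (2.59). The homeobox factors Lhx6 (20.9 to 254.1, 3.25) and Dlx1 (103.6 to 1035, 3.24) rose alongside them. The list did not move as one, since 2 of the 12 went down by less than 2-fold (lowest -0.74). Slc32a1, the vesicular GABA transporter, changed by 2.62, but its second, dimmer probe set changed by -0.62.

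Genes of the synapse and of excitability were next. Of 35 listed synapse and vesicle genes, 31 were measured but only 17 exceeded a signal of 100; 15 of the 17 rose and none fell (median 1.605, and 1.48 over all 31 measured). Rab3c, a small GTPase of vesicles, went from 10.2 to 224.3 (3.78), Lin7a, a scaffold protein, from 6.64 to 120.0 (3.27) and Snap25, a part of the fusion machinery, from 14.7 to 188.2 (3.20). Of 41 listed voltage-gated channels and transmitter receptors, 32 were measured and 10 over the limit, of which 8 rose (median 2.78; 1.30 over all 32 measured). Scn3b, an accessory subunit of sodium channels, went from 5.53 to 189.3 (4.03), and the AMPA receptor gene Gria2 from 15.5 to 289.6 (3.75). Most members of both lists were thus under or near the limit, and those over it passed mainly through their level at E12.5. Of 42 axon guidance and adhesion genes, all measured and 30 over the limit, 16 rose and 3 fell (median 1.21). The netrin receptor Dcc went from 127.7 to 1309 (3.29), Cntn2, an adhesion protein of growing axons, from 21.5 to 246.5 (3.17), and Epha5, an ephrin receptor, from 14.5 to 218.4 (3.42); the genes that fell were Cdh11 (-1.36) and the repellents Sema3a (-1.23) and Sema3f (-1.08).

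Of 27 listed RNA-binding proteins and other regulators of neuronal splicing and RNA stability, all were measured and 25 were over the limit, of which 14 rose and 2 fell (median 1.32). Celf5 went from 42.2 to 756.6 (3.97), Rbfox1 from 3.59 to 112.2 (3.56), Celf4 from 38.1 to 452.8 (3.36) and Elavl3 from 82.7 to 616.8 (2.80). The genes that fell were Esrp1, a splicing factor of epithelia (188.2 to 1.08, -4.68), and Mbnl2 (-1.22). Ptbp1, which represses neuronal exons in progenitors, went from 1752 to 1015, a change of -0.78, and its neuronal relative Ptbp2 from 2308 to 3631, a change of 0.65; both are less than 2-fold.

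Host transcripts of microRNAs known from neurons were among the risen genes. Mir124a-1hg went from 23.2 to 308.9 (3.41) and Mir124-2hg from 143 to 884 (2.58), both hosts of miR-124. Mir9-3hg went from 36.8 to 452.9 (3.41), where wild type went from 122 to 396 (1.65), so that this host was below wild type at E10.5 and above it at E12.5. Mir99ahg went from 36.2 to 446.8 (3.41). The arrays measured the host transcripts and not the mature microRNAs. The mature sequences below are those encoded within Mir9-3hg and those encoded on the same strand 40512 and 41244 bases beyond the annotated end of Mir99ahg; they are from RefSeq on GRCm38.p6, with the seed (bases 2 to 8) in capitals. The let-7 entry is shown also because Lin28a, which blocks its maturation, was among the largest decreases.
miR-9-5p, chr7:79505279-79505301, plus strand: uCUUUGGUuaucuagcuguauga
miR-9-3p, chr7:79505318-79505339, plus strand: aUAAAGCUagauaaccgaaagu
miR-99a-5p, chr16:77598940-77598961, plus strand: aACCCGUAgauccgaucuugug
let-7c-5p, chr16:77599672-77599693, plus strand: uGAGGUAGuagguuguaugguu
No 2 of these 4 sequences share a seed.

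**Figure D2:**
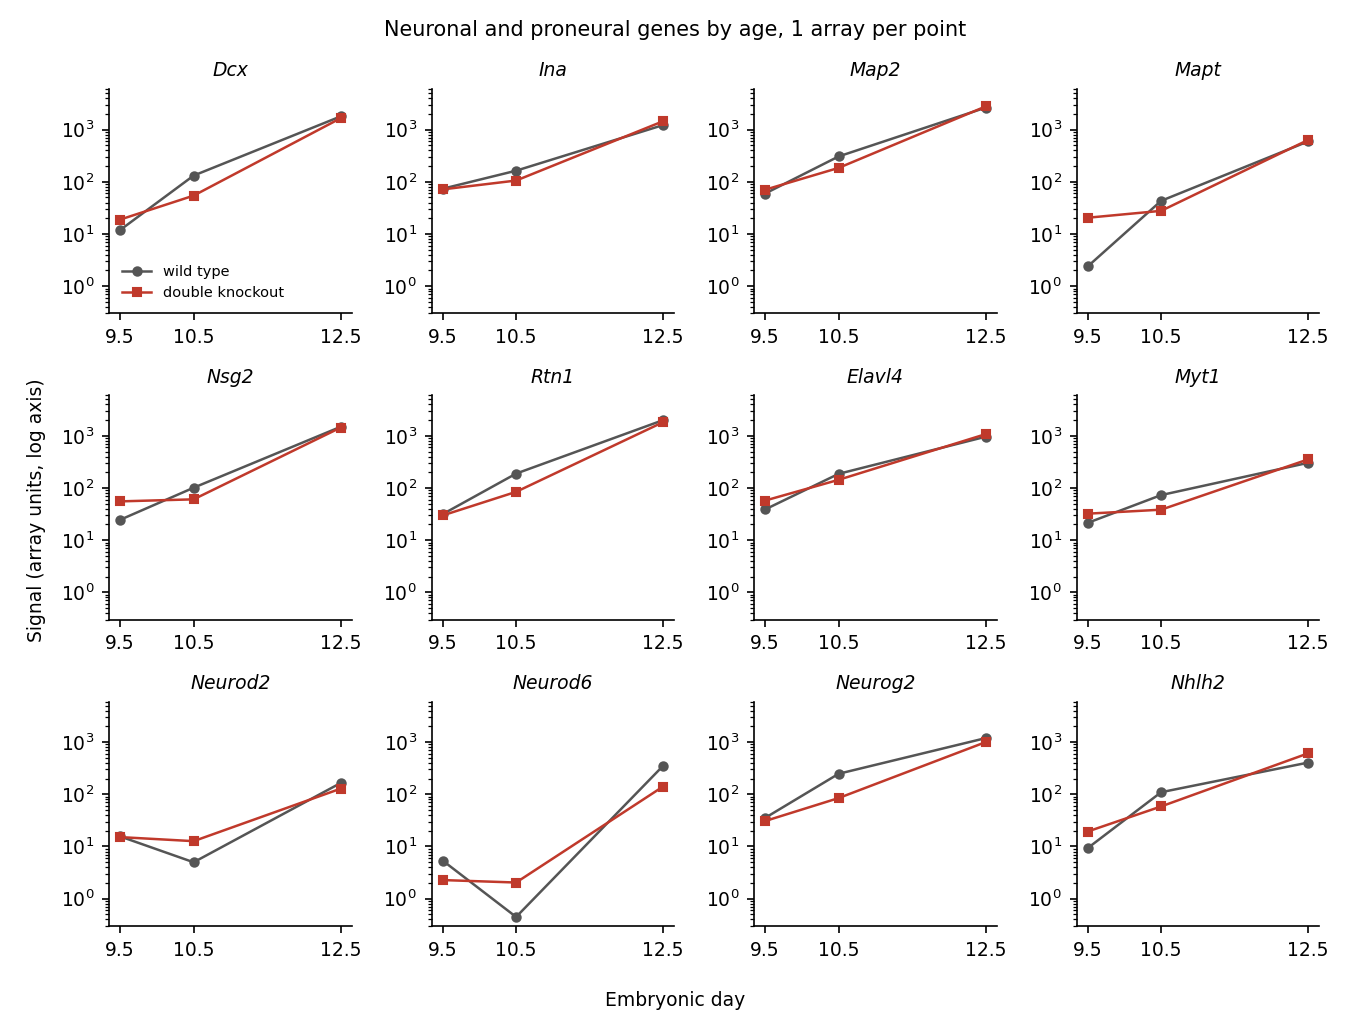
Signal (vertical, array units, log axis) of 6 early neuron genes and 6 proneural genes by embryonic day (horizontal), 1 array per point, for wild type (circles) and the knockout (squares). For Dcx the knockout is below wild type at E10.5 (54.3 against 131.4) and near it at E12.5 (1651 against 1787), while Neurod6 is below wild type at E12.5 (140.7 against 350.9).

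Whether neuronal genes that were late in the knockout at E10.5 had caught up by E12.5 was then read from the gap to wild type, knockout minus wild type at the same age. At E10.5 the median gap of the 31 early neuron genes was -0.63, and 28 of the 31 were below wild type, where 51.3% of all genes were. At E12.5 the median gap was -0.05, and 17 of 31 were below, where 46.4% of all genes were. The 31 genes and the background were both chosen by knockout signal, with no limit on wild type. Genes bright only in wild type are thus left out, and the part of this choice in the gaps was not tested. The gap of each age comes from its own pair of arrays, and the difference of the 2 gaps is the difference between the genotypes' changes in another form. The summed signal of the 36 measured genes was 3100 in the knockout and 2920 in wild type at E9.5, then 4534 and 6801 at E10.5, and 36988 and 37608 at E12.5. The knockout thus began level with wild type, was behind it at E10.5 and was close to it at E12.5. Read as change, the increase was larger in the knockout for 29 of 31 genes, where this held for 54.2% of all genes, with a median of 2.99 against 2.44. Isl1 (1.87 against 2.62) and L1cam (2.19 against 2.55) were the exceptions. In whole tissue, more cells of a type and more RNA per cell cannot be told apart.

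Single genes followed the list at E10.5 to different degrees. Dcx was 54.3 in the knockout and 131.4 in wild type at E10.5, then 1651 and 1787 at E12.5. Rtn1 was 84.6 and 189.1, then 1829 and 1999. Tubb3, the tubulin isoform of neurons, was 306.4 and 541.9, then 2619 and 2596. In each the knockout array was the lower one at E10.5 and within a small margin of wild type at E12.5. Stmn4, a stathmin that acts on microtubules, was 78.1 and 152, then 458.3 and 682.6, so it kept a gap of -0.57 at E12.5.

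The proneural list showed a similar course. Its median gap was -0.37 at E10.5 with 19 of 25 genes below wild type, and 0.13 at E12.5 with 9 of 25 below. Neuroepithelial and radial glial genes went from a median gap of -0.32 to one of 0.08, with 23 and then 10 of 29 below wild type. The GABAergic list went from -0.24 to 0.12 (8 and then 2 of 12 below). The glutamatergic and cortical list went only from -0.26 to -0.18, with 12 and then 14 of 19 below. Genes of the dorsal telencephalon, where the cortex forms, went from -0.50 to -0.22, with 16 and then 12 of 18 below. In both cortical lists most genes were thus below wild type at E12.5, as were 12 of 17 synapse genes and 19 of 30 axon guidance genes. The genes of all these lists were likewise chosen by knockout signal, with no limit on wild type, and the part of this choice was not tested. No test of a difference between lists was made.

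**Figure D3:**
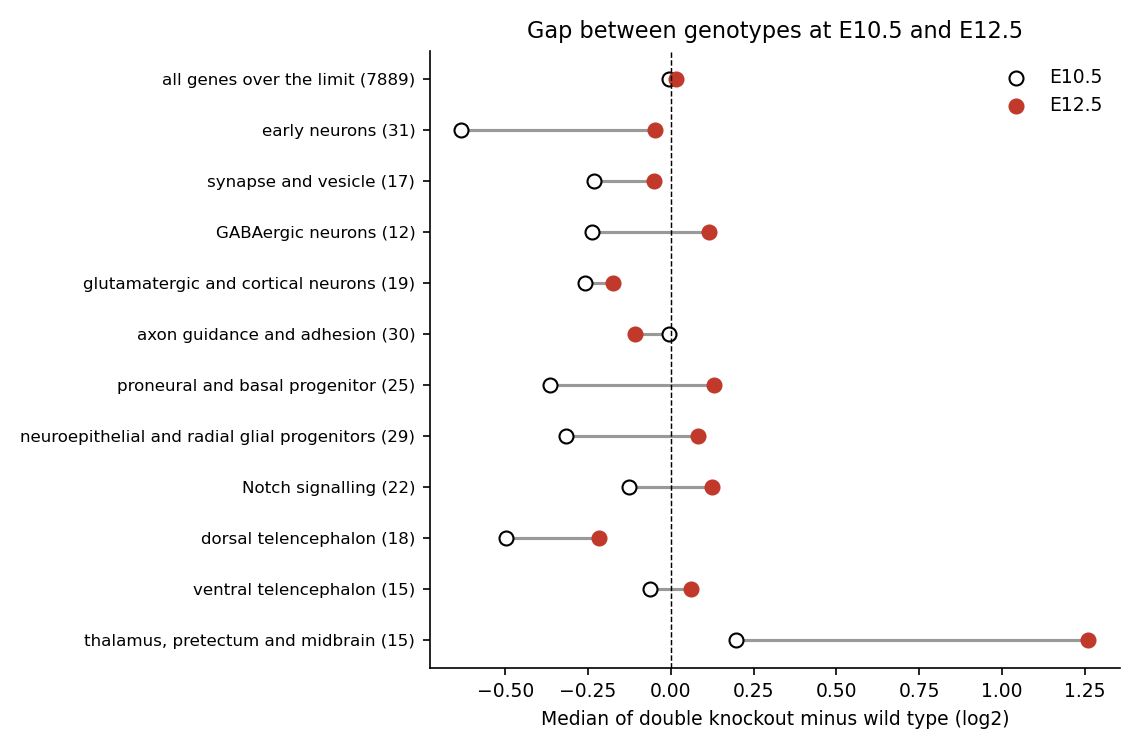
Median over each list's genes (number in brackets) of knockout minus wild type on the log2 scale (horizontal), at E10.5 (open circles) and E12.5 (filled circles). The early neuron list goes from -0.63 to -0.05, the glutamatergic list from -0.26 to -0.18, and the list of thalamus, pretectum and midbrain from 0.20 to 1.26.

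Of 34 listed neuroepithelial and radial glial genes, 33 were measured and 29 over the limit; 13 rose, 1 fell (Cdh1, -4.09, also a gene of epithelia) and the median change was 0.89. Ptprz1, a receptor phosphatase of radial glia, went from 105.0 to 1151 (3.38), the endothelin receptor gene Ednrb from 97.7 to 775.7 (2.91) and Fabp7, the brain lipid-binding protein of radial glia, from 778.5 to 5167 (2.72). Hopx (69.4 to 363.1, 2.28) and Sox9 (140.6 to 426.3, 1.56), factors found in later radial glia, also rose, and both were above wild type at E12.5, where they stood at 196.7 and 254.9. The second Sox9 probe set, also over the limit, was 149.5 and 154.0 (0.04), so the Sox9 increase rests on 1 probe set. The pan-neural factors Sox2 (0.96) and Pax6 (0.89) changed less than 2-fold. Of 31 listed genes of gliogenic onset, 30 were measured and 19 over the limit; 10 rose and 3 fell, with a median of 1.56, but the median over all 30 measured was 0.55. The nuclear factors Nfix (9.23 to 172.9, 3.51) and Nfia (89.7 to 543.6, 2.52), which open the period of glial competence, rose, while Gfap, the marker of mature astrocytes, was 14.0 and 15.6. Pdgfra, which marks oligodendrocyte precursors later but also head mesenchyme, fell from 464.6 to 51.5 (-3.02).

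In the Notch pathway 3 ligands rose. Of the target repressors, Hes1 changed by 0.01, and the 2 Hes5 probe sets changed by -0.01 and 1.24. Of 30 listed genes, 29 were measured and 22 over the limit. Of the 22, 8 rose and none fell, where 9.27% and 8.28% of all genes did. The median was 0.58 (0.34 over all 29 measured). Among ligands, Dner went from 72.0 to 629.9 (3.02), Dll3 from 61.5 to 300.9 (2.18) and Dll1 from 161.2 to 564.7 (1.77), while Jag1, a ligand of another subfamily, changed by -0.64. The modifier Mfng, which adds sugar to the receptor, changed by 1.70, and Notch1, the receptor, by 1.23. Hes5, the repressor that Notch signalling induces, was 847.6 at E10.5 and 840.2 at E12.5 in the knockout (-0.01), and 371.3 and 968.1 in wild type (1.37). Its level in the knockout was thus already high at E10.5, and the wild-type array reached it by E12.5. The second, dimmer Hes5 probe set went up by 1.24 in the knockout, so the flat course holds for the brighter probe set only. Hes1, a related repressor, changed by 0.01, and Nrarp, a feedback inhibitor of the pathway, by 1.26. Dtx1 changed by 1.39, with its second probe set at -0.16.

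Several genes of the early embryo fell over the same interval. Of 34 listed early embryonic and heterochronic genes, 31 were measured and 16 over the limit; 10 fell, where 8.28% of all genes did, none rose, and the median change was -1.43 (-0.88 over all 31 measured). The largest decrease in the list was that of Crabp1 (3756 to 72.5, -5.57), which also stands in the list of head mesenchyme and neural crest. Lin28a, an RNA-binding protein of early stages, went from 479.5 to 21.4 (-4.12), and Sall4, a zinc-finger factor of pluripotent cells, from 413.2 to 31.3 (-3.47). Trim71, itself a let-7 target, went from 125.8 to 12.1 (-2.83) and the DNA methyltransferase gene Dnmt3b from 486.8 to 105.8 (-2.13). Lin28a and Sall4 were higher in the knockout than in wild type at both ages: wild type stood at 234.7 and 9.997 for Lin28a, and at 268.9 and 24.3 for Sall4. Fgf15 was the only member over the limit that went up (261 to 409.9, 0.64).

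DNA replication genes went down together by less than 2-fold. Of 30 listed S phase genes, 29 were measured and 28 over the limit; all 28 changed downward, where 4268 of the 7889 genes did, but only Cdc6 (569.5 to 218.9, -1.35) and Fen1 (1228 to 565.7, -1.11) fell. The median was -0.60, and in wild type it was -0.66. Cdc6 loads the replicative helicase, of which Mcm4 is a subunit (1531 to 861.5, -0.82). Pcna, the sliding clamp, was 6207 and 5372 (-0.21). Of 29 measured G2 and M phase genes, all over the limit, only the kinase gene Nek2 fell (-1.08), and the median was -0.23. Aurka changed by -0.77 and its second probe set by 0.29.

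Cdc6 and Mcm5 are the 2 S phase genes with the largest change among those whose 250 upstream bases hold an E2F word, TTTGGCGC or TTTCCCGC on either strand. The sequences are from RefSeq on GRCm38.p6 on the gene's strand, with the word in capitals, in both cases read on the other strand.
Cdc6, chr11:98907901-98908150, plus strand: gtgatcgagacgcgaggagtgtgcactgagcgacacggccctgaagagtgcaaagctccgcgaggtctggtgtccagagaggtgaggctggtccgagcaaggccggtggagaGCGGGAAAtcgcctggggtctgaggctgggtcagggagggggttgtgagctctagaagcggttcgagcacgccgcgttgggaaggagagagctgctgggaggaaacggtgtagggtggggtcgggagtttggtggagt
Mcm5, chr8:75109259-75109508, plus strand: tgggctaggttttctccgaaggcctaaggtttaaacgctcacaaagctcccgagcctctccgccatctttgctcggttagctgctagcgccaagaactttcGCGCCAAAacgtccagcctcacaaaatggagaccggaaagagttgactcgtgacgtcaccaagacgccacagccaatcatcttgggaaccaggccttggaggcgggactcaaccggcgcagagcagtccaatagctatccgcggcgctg
Of the 28 S phase genes, 24 were matched to the promoter table and 5 held one of the words (20.8%). This held for 0 of 24 matched G2 and M phase genes and 3.30% of the 6479 matched genes over the limit. It held for 13 of 512 matched genes that fell (2.54%), 8 of 576 that rose (1.39%) and 193 of 5391 that did neither (3.58%). Counted per promoter over the whole table, with no signal limit, the share was 1.30%, which is not a like measure. The Notch-related word TGGGAA was in 3 of 17 matched Notch genes (17.6%), 24.7% of risen genes, 21.5% of fallen genes and 22.4% of the 6479 matched genes. Counted per promoter over the whole table, it was in 21.6%, again not a like measure. No difference between these shares was tested.

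**Figure D4:**
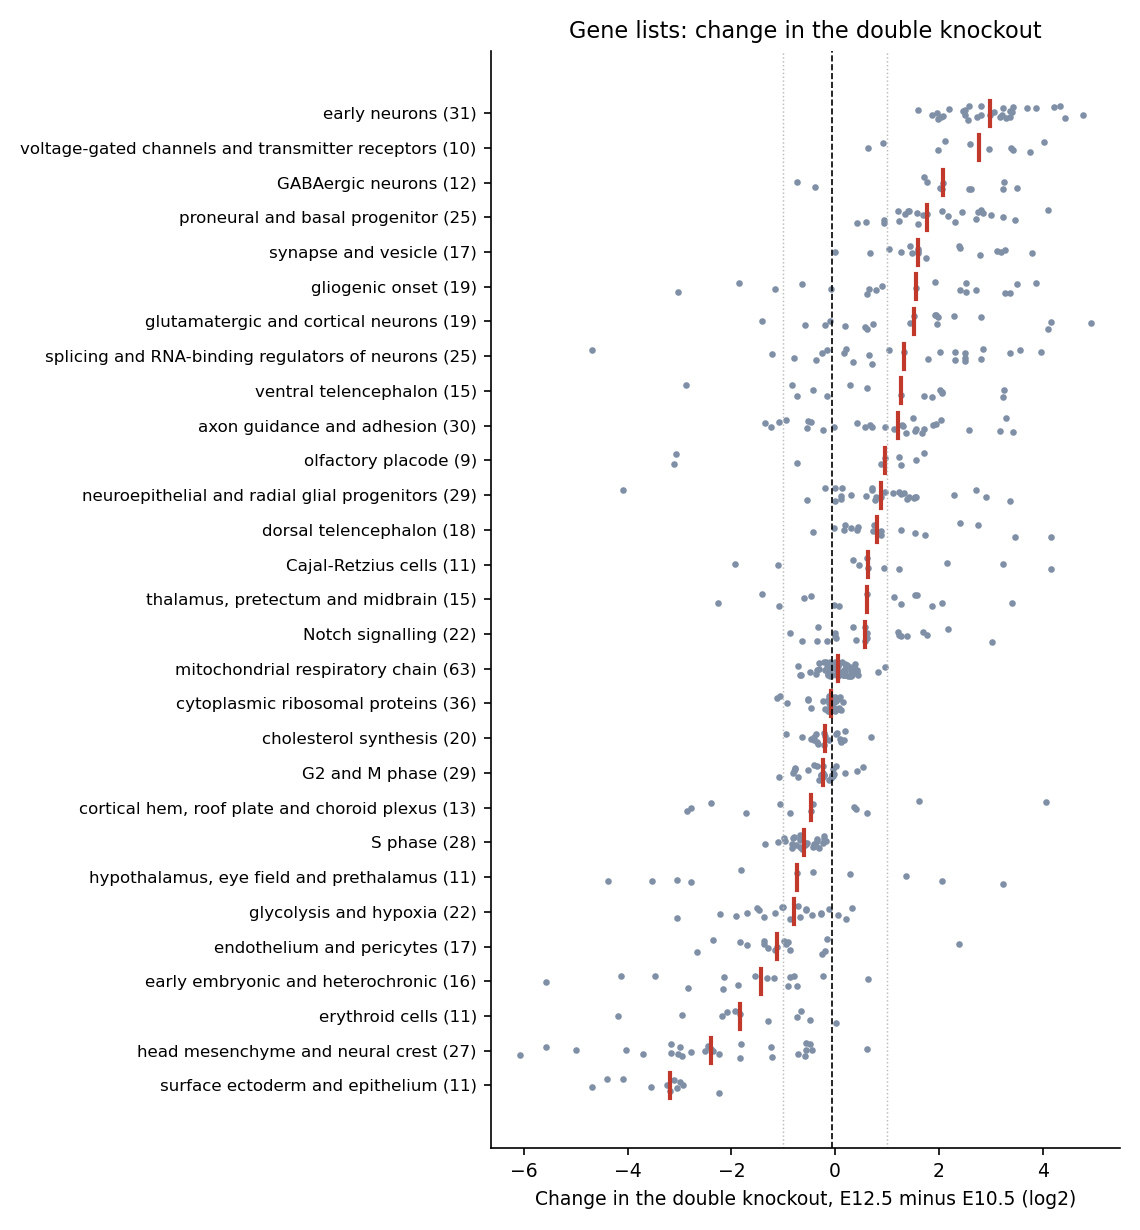
Change in the knockout from E10.5 to E12.5 on the log2 scale (horizontal) for the genes over the signal limit in each list with at least 5 of them (number in brackets), each point 1 gene, with the list median as a vertical bar. The dashed line is the median of all 7889 genes (-0.07) and the dotted lines are 2-fold; the early neuron list has the highest median (2.99) and the surface ectoderm list the lowest (-3.18).

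Many of the largest decreases were in genes known from tissues around the brain. Alx1, a homeobox factor of the facial mesenchyme, went from 671.0 to 3.55 (-6.07), Crabp1, a retinoic acid-binding protein of neural crest, from 3756 to 72.5 (-5.57), and Twist1, a mesenchymal helix-loop-helix factor, from 464.2 to 8.29 (-4.99). Further large decreases were in Crym (-4.98), the desmosome gene Dsp (-4.73), the retinoic acid-synthesising Aldh1a3 (-4.71), Esrp1 (-4.68), the collagen gene Col9a1 (-4.40), the keratin gene Krt18 (-4.39), Tbx3 (-4.38), Mpzl2 (-4.29), the erythroid gene Hemgn (-4.19), Lin28a (-4.12), the epithelial cadherin gene Cdh1 (-4.09) and Snai2 (-4.02). In the main these are genes known from mesenchyme, epithelium and blood, with Lin28a apart. Some also stand in other lists: Tbx3 in hypothalamus, eye field and prethalamus, Cdh1 in neuroepithelial and radial glial progenitors, and Crabp1 in early embryonic genes. In whole tissue, a decrease in the brain and one in tissue around it cannot be told apart.

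All 11 surface ectoderm genes over the limit fell (28 listed, 27 measured), with a median of -3.18, and 21 of all 27 measured went down at least 2-fold, against 9.06% of all 18194 genes. Their summed signal went from 3069 to 319.2, and 22 of the 27 were under the median of all values (22.5) at E12.5, among them Krt8, Krt18, Cdh1 and Trp63. Of 27 head mesenchyme and neural crest genes over the limit (43 listed, 41 measured), 20 fell and none rose, with a median of -2.40 (-1.41 over all 41 measured), and the summed signal was 19406 and 7290. Twist1, Twist2, Prrx2, Foxc2 and Alx1 were under 22.5 at E12.5, while the collagen gene Col3a1 was still at 869.7. Of 17 endothelial and pericyte genes over the limit (38 listed, 37 measured), 9 fell and 1 rose (median -1.12, and -0.88 over all 37 measured, summed signal 9567 and 4224). The gene that rose was the pericyte marker Rgs5 (24.8 to 157.7, 2.39), and Fli1, an endothelial factor, fell from 353.2 to 49.9 (-2.67). Of 11 erythroid genes over the limit (37 listed, 26 measured), 7 fell and none rose (median -1.84, and -1.08 over all 26 measured, summed signal 31601 and 19069). The embryonic globin gene Hbb-bh1 went from 9820 to 2747 (-1.84).

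Wild type lost the same markers over the same interval. There the summed signal went from 2488 to 348.1 for surface ectoderm, from 19263 to 9400 for head mesenchyme, from 8504 to 4312 for endothelium and from 31606 to 15418 for erythroid genes. The neuronal genes that rose and these markers that fell moved in opposite directions in both genotypes, and the part of a changing share of tissues in either was not tested. At E10.5 the summed mesenchyme signal was alike in knockout and wild type (19406 and 19263), and surface ectoderm was higher in the knockout (3069 and 2488). At E12.5 the 27 mesenchyme genes had a median gap to wild type of -0.39, with 24 of them below.

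Other marker lists were dim or mixed. No macrophage gene among the 3 over the limit changed 2-fold (31 listed, 29 measured; summed signal 1267 and 1037), and Ptprc, Cx3cr1 and Aif1 were under 22.5 at E12.5. No Hox gene of 26 measured was over the limit at either age, with a summed signal of 225 and 170. Of 25 measured eye and lens genes only Maf and Six6 were over the limit, and Six6, a factor of the eye field, fell from 126.1 to 9.64 (-3.04). In the olfactory placode list 4 of 9 genes rose and 2 fell, the latter Six4 (-3.11) and Eya1 (-3.07). The Y-linked genes Eif2s3y (243.3 and 164.1), Kdm5d (155.0 and 166.4) and Uty (101.1 and 95.6) were measured in both arrays. The second, dimmer Eif2s3y probe set went up, opposite to the brighter one.

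Regional genes of the forebrain did not move as one. Of 18 dorsal telencephalic genes over the limit (24 listed, 23 measured), 7 rose and none fell (median 0.81); besides the neuronal ones these were Lhx2 (364.2 to 1074, 1.54), Emx2 (183.0 to 451.1, 1.27), Fgfr3 (2.41, second probe set -0.23) and Wnt7a (1.73, second probe set -0.23). Of 15 ventral telencephalic genes over the limit (26 listed, 25 measured), 8 rose and Rarb fell (-2.87), with a median of 1.28. In the list of hypothalamus, eye field and prethalamus, 3 of 11 rose and 5 fell (median -0.74); with a signal limit of 200 the direction turned, to 0.33 relative to all genes. Among its members, Foxd1 (-2.78) and the T-box genes Tbx2 (-3.54) and Tbx3 (-4.38) are also expressed outside the brain.

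The list of thalamus, pretectum and midbrain, regions behind the telencephalon, stood apart from wild type at E12.5. Its 15 genes over the limit (36 listed, 33 measured) had a median change of 0.61 in the knockout and -0.09 in wild type, and the change was larger in the knockout for 14 of the 15. The median gap to wild type was 0.20 at E10.5 and 1.26 at E12.5. These 15 genes were chosen by knockout signal, with no limit on wild type, so genes bright only in wild type are left out. Over all 33 measured genes the summed signal at E10.5 was 4338 in the knockout and 4321 in wild type. At E12.5 the sums were 7048 and 4799. Tcf7l2, a marker of the thalamus, went from 341.2 to 1262 in the knockout (1.87) and from 296.8 to 474.0 in wild type. Dbx1 went from 169.6 to 519.2 (1.58) and was 131.0 in wild type at E12.5. Pax7, a factor of the dorsal midbrain and pretectum, was 179.7 and 116.1 in the knockout (-0.60) but 131.7 and 10.9 in wild type (-2.99). Irx3, an Iroquois factor, was 773 and 360.5 in the knockout (-1.09) and 619 and 124.1 in wild type. Tcf7l2 and Dbx1 thus went up further than in wild type, and Pax7 and Irx3 went down less. Lhx9 rose as well (44.7 to 533.8, 3.40), whereas Olig3 was 14.5 in the knockout and 80.2 in wild type at E12.5. Where the dissection ended caudally in each embryo is not recorded in the labels, and its part in this result was not tested.

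The cortical hem and choroid plexus, at the edge of the cortex, showed one large difference. Ttr, the marker of choroid plexus epithelium, went from 12.7 to 314.3 in the knockout (4.06) and from 14.0 to 2661 in wild type (7.03). At E12.5 the knockout was thus far below wild type (gap -3.06). Kcne2, a channel subunit of the same epithelium, was 3.19 in the knockout and 28.4 in wild type at E12.5, and Clic6 was 77.9 and 125.6. Of 13 genes of this list over the limit (41 listed, 37 measured), 2 rose (Ttr and Zic4, 1.62) and 5 fell, among them Msx2 (-2.86), Bmp4 (-2.77), Msx1 (-2.40) and Wnt5a (-1.72), which are expressed in surrounding tissue too. Of the 16 listed Cajal-Retzius genes, all were measured and 11 over the limit, of which 4 rose and 2 fell. Reln, the secreted protein of these cells, went from 78.1 to 372.3 in the knockout (2.16) and from 74.0 to 650.3 in wild type (3.03), with the second knockout probe set at -0.70. The chemokine gene Cxcl12 went from 328.8 to 81.2 (-1.94).

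None of the 63 respiratory chain genes over the limit changed 2-fold (median 0.05), nor did any of the 20 cholesterol synthesis genes (median -0.20). Of 36 cytoplasmic ribosomal protein genes 2 fell, Rps27 (-1.13) and Rpl12 (-1.07), and the median was -0.07; outside this list, the ribosomal protein genes Rpl39 (2.49) and Rpl27a (-2.31) changed further. Of 22 glycolysis and hypoxia genes over the limit (30 listed, 27 measured), 10 fell and none rose (median -0.80). The glucose transporter gene Slc2a3 went from 1281 to 148.9 (-3.05), Slc2a1 from 2715 to 830.6 (-1.70), hexokinase Hk2 from 799.8 to 207.3 (-1.92) and Pdk1, which holds pyruvate back from the mitochondria, from 783.1 to 163.3 (-2.22). The other genes that fell were Bnip3 (-1.497), P4ha1 (-1.46), Aldoa (-1.38), Egln3 (-1.17), Pfkl (-1.02) and Pfkp (-1.01), while Gapdh (0.06) and Pkm (-0.28) changed less than 2-fold.

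The course of the knockout ran close to that of wild type over the genome. Across the 7889 genes the knockout and wild-type changes correlated at a Pearson r of 0.927; genes are not independent replicates, and the 2 changes share the probe sets and the normalization but no array. Of the 731 genes that rose in the knockout, 498 rose in wild type too, which is 68.1% of the knockout genes and 82.3% of the 605 wild-type genes. Of the 653 that fell, 413 fell in both (63.2% of the knockout and 74.3% of the 556 wild-type genes). No gene changed at least 2-fold in opposite directions, and 4 of the 731 risen genes and 2 of the 653 fallen ones had a wild-type change of opposite sign. The 605 genes that rose in wild type had a median change of 1.48 there and 1.71 in the knockout, and the 556 that fell a median of -1.36 there and -1.34 in the knockout.

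**Figure D5:**
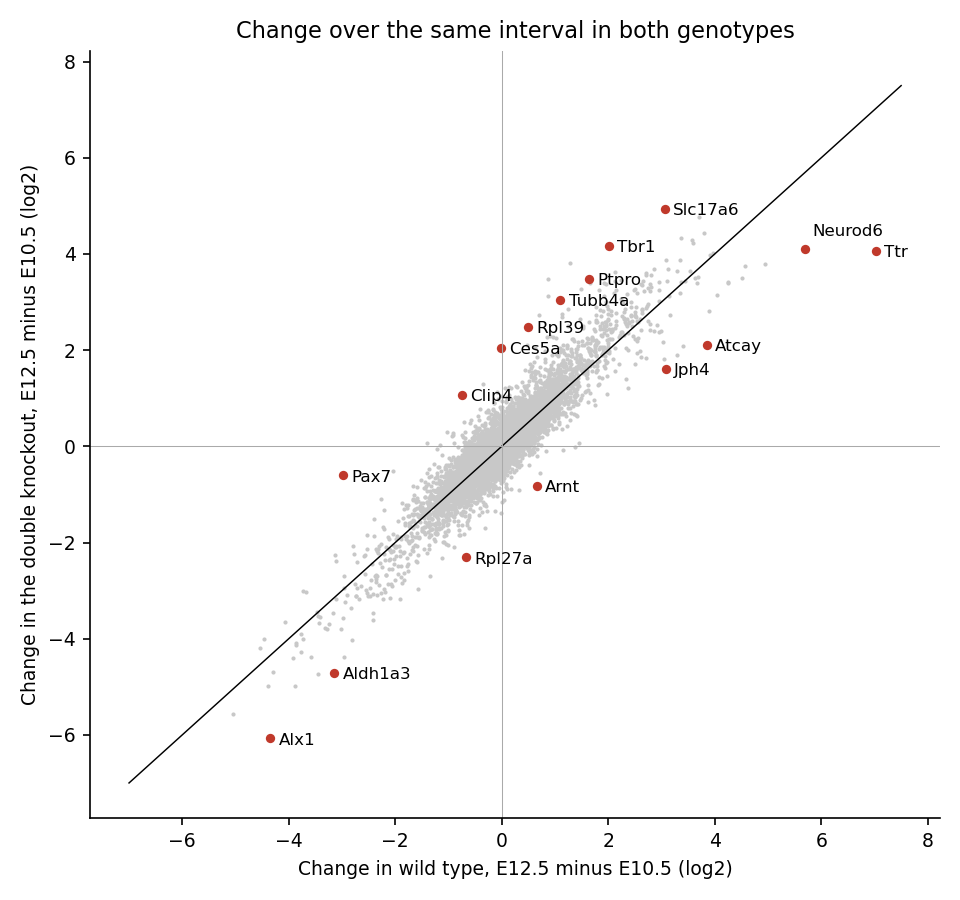
Change from E10.5 to E12.5 on the log2 scale in wild type (horizontal) and in the knockout (vertical), each point 1 of 7889 genes, with the diagonal marking equal change. The 16 named genes are the 8 on each side with the largest difference among genes over the signal limit in both genotypes, such as Tbr1 (4.17 against 2.02) above it and Ttr (4.06 against 7.03) below it. Clone-named genes were left out of this choice.

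Differences of at least 2-fold between the 2 changes were few: 71 genes changed more positively and 44 more negatively in the knockout, and the SD of the difference over genes was 0.34. The largest on each side are given among genes over the limit in both genotypes, with clone-named genes left out. On the positive side they were Pax7, Tbr1, Ces5a (2.05 against -0.02), Rpl39 (2.49 against 0.49), Tubb4a (3.05 against 1.099), Slc17a6 (4.93 against 3.06), Ptpro (3.47 against 1.64) and Clip4 (1.07 against -0.74). For Tbr1 and Slc17a6 the E10.5 array sets the difference: Tbr1 was 3.99 in the knockout and 63.7 in wild type there, and Slc17a6 was 7.20 and 50.3. On the negative side the largest were Ttr, Atcay (2.11 against 3.85), Alx1 (-6.07 against -4.35), Rpl27a (-2.31 against -0.67), Neurod6 (4.11 against 5.69), Aldh1a3 (-4.71 against -3.15), Jph4 (1.61 against 3.08) and Arnt (-0.82 against 0.65, with the second knockout probe set at 0.25).

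A second probe set gives a check within the same arrays. Of the 731 risen genes, 226 had a second probe set that was also over the limit, and 215 of these went up and 163 did so at least 2-fold. Of the 653 fallen genes the numbers were 220, 211 and 129. Genes just outside the limit of 100 were Lrp2 and Mylip (signals 99.96 and 99.98 at E10.5), and those just inside were Ube2o (100.002) and Hebp1 (100.02). Sall1 (1.0005) lay just inside the 2-fold limit and Klhl5 (0.9979) just outside it, and Snhg3 (-1.0007) and Lars2 (-0.9993) likewise among decreases.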

How the data were processed

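Gene expression was measured on 6 one-colour Affymetrix arrays, 1 for each genotype and age in the labels; the knockout arrays of E10.5 and E12.5 were compared. Each deposited value is the linear intensity of a probe set, computed by the authors with MAS5 per the submitters' processing notes; scaling target and version: not given in the sources used here. The arrays differed in overall level, so the 6 were quantile-normalized together (limma 3.58.1, R 4.3.3) and taken as log2(signal + 6.50). Names of probe sets come from the platform's annotation, where 34958 had 1 symbol, 932 several and 9211 none. A gene takes its brightest single-symbol probe set over the 6 arrays. Of the 124 named genes with a second probe set, 11 had one of opposite sign and at least 2-fold apart. Its change is given where the Results name the gene, except that only its direction is given for Eif2s3y. The Results do not name Lss and Scn3a. The code was tested on simulated data.

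The members and the 33 gene lists were chosen with earlier results of these data known. Some genes stand in several lists. Named genes are the 15 largest increases and decreases, and up to 6 members per list by size of change. Also named are 8 genes per side by difference from wild type, and Fezf1, Fezf2 and Hes5. Clone-named genes (ending in Rik, starting with LOC or Gm and a digit, or an accession) were left out of both rankings over all genes. Further members are named to account for a count or a role. With 1 array per group the number of arrays limits the precision and no test was made. Promoters and microRNAs are from RefSeq tables of GRCm38.p6 (6479 of 7889 genes matched by Entrez identifier).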

Additional observations from a re-analysis of the deposited data

Results flagged for a closer look

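Changes of opposite sign in the knockout and in wild type, with one of them at least 2-fold, occurred in 3 named genes. The difference between the 2 changes was 2.07 for Ces5a (signal 30.6 and 146.9 in the knockout, 144.5 and 142.6 in wild type), 1.81 for Clip4 (45.3 and 102.1; 121.3 and 69.8) and -1.38 for Hes5 (847.6 and 840.2; 371.3 and 968.1). These differences were not tested, since each rests on 4 arrays without replicates. For Ces5a and Clip4 the knockout array of E10.5 is the low one, and the second probe sets changed by 0.93 and 0.40 in the knockout. The second Hes5 probe set changed by 1.24 in the knockout and by 1.39 in wild type, so it does not show the difference.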

How the results depend on the processing

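No replicate could be left out, and no paired analysis was possible because each group has 1 array. Of 145 named genes at least 1 log2 unit from the median of all genes, 139 kept their direction under every one of the 11 other settings that gave them a value (of the 181 named genes, 124 could be run with a second-brightest probe set and 163 without suffixed ones), and 6 did not. The values below are on the log2 scale relative to that median and cover the counts, the lists used as summaries of the change and everything that turned. A value counts as moved past 0.34, the SD over genes of the difference between the genotypes' changes; by that measure 71 named genes moved with the median as pseudocount, 40 with a pseudocount of 1, 83 with the mean of probe sets and 90 of 124 with the second-brightest one, and 7 of 35 lists moved with the values as deposited. With the values as deposited the counts were 3416 risen and 138 fallen (2713 and 65 in both genotypes), the median of all genes was 0.82, thalamus 0.25 and surface ectoderm -3.47, against 0.68 and -3.11. With a common trimmed mean, erythroid genes were at -1.42 (against -1.77), and 856 genes rose and 558 fell. Surface ectoderm was at -3.61 with a pseudocount of 1 and at -2.46 with the median of all values as pseudocount. With a signal limit of 50, thalamus was at 0.16; with 200, 390 genes fell (238 in both genotypes), thalamus was at 1.596, erythroid genes at -1.24 and hypothalamus turned to 0.33. Without a limit, 1431 genes rose and 1648 fell (763 and 815 in both), early embryonic genes were at -0.81, surface ectoderm at -2.16, head mesenchyme at -1.34 and erythroid genes at -1.01. With the mean of all probe sets, 480 rose and 431 fell (326 rose in both), early neurons were at 2.63 (against 3.05) and hem and choroid plexus at 0.017. With the second-brightest probe set, 260 rose and 260 fell (186 and 162 in both), early embryonic genes were at -0.90, thalamus at 1.09, surface ectoderm at -3.75, erythroid genes at -1.19, hem at 0.12 and olfactory placode at -0.95; the genes that turned were Dtx1 (-0.10), Fgfr3 (-0.16), Reln (-0.63), Scn3a (-0.93), Slc32a1 (-0.56) and Wnt7a (-0.16). Among probe sets without a cross-hybridisation suffix, a setting added after seeing the data, thalamus was at 1.16 and Dtx1 at -0.14. The cause was not tested, beyond the fewer genes that stricter settings leave. The number of arrays and the low signal of dim genes limit all values.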
